A study of Mus musculus with 50 samples.

Results

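The stretch of the mouse X chromosome between 120 and 140 Mb (build mm9) holds 119 of the 24391 genes in the count tables. A gene was placed there when the start that the tables list for it fell in that range. Ribosomal protein genes and Col4a6, Esx1 and Tmsb15b2 were left out, which removed 4 of 123 listed genes, and no expression value entered the choice. Of the 119 genes, 73 start between 130 and 134 Mb. At least 1 read in 1 of the 8 RNA-seq libraries was found for 102 genes, and 17 had none in any library, among them 5 of the 7 miRNA genes of the stretch.

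The study deleted Repeat B, a tandem repeat within the long non-coding RNA Xist, and asked how Xist and Polycomb complexes depend on each other along the inactive X chromosome. RNA was sequenced from RepB-/- embryonic stem (ES) cells, RepB+/- ES cells and wild-type (WT) ES cells, with 2 libraries of each genotype, and from RepB mouse embryonic fibroblasts (MEF) and WT MEF, with 1 library each. All 8 samples carried the CAST/Ei x 129/Sv/Jae background, so a read over a strain variant could be given to the 129 or to the CAST chromosome. ES cells of all 3 genotypes were grown on irradiated fibroblast feeders, freed of them, kept as embryoid bodies for 4 days and plated for 10 more days. The labels do not say which Xist copy lost the repeat in RepB+/- cells, whether RepB MEF lost it on 1 or both copies, whether a genotype is 1 clone, or whether replicates were separate cultures. The p-values given here therefore rest on the spread between these libraries, which may be technical. Those of edgeR and DESeq2 draw part of that spread from all genes tested. A very small one can thus stand beside a wide spread between the libraries of its own gene.

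In female mammals Xist RNA coats the chromosome it is made from and most genes of that chromosome fall silent, while some genes, called escapees, stay active on it. Polycomb complexes, which place repressive marks on histones H3 and H2A, are brought to the coated chromosome, and Repeat B is the part of Xist known for this. The stretch from 120 to 140 Mb is known for clusters of related genes that arose by duplication. Armcx genes encode armadillo-repeat proteins, several of them at mitochondria. Gprasp genes encode proteins that bind G protein-coupled receptors and sort them to lysosomes. Bex genes encode small adaptor proteins of the brain, and Tceal genes encode small nuclear proteins that resemble a transcription elongation factor.

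Total counts ran between 8000722 (RepB+/- replicate 2) and 28045645 (RepB-/- replicate 1) per ES library, and were 18631736 in RepB MEF and 12126941 in WT MEF. Reads with a known allele made up 26.7% to 28.0% of each library. Reads of Xist itself came from the 129 chromosome for 89.2% and 87.2% in RepB-/- cells, 97.8% and 97.3% in RepB+/- cells and 98.9% and 98.6% in WT cells, so most Xist RNA was made by the 129 X in each ES library. On chromosome 13, an autosome, genes had median 129 shares between 50.0% and 50.8% in every ES library. The cultures also differed in cell state. Of 8 tested pluripotency genes, 7 rose in RepB-/- cells and 8 in RepB+/- cells against WT, and of 8 cardiac genes 7 fell in both. Their summed levels were 405 to 499.6 CPM (counts scaled to library size) in RepB-/-, 466 to 699 CPM in RepB+/- and 173 to 193 CPM in WT for pluripotency. The cardiac genes summed to 267 to 271 CPM in RepB-/-, 320 to 322 CPM in RepB+/- and 581 to 621 CPM in WT. Of 9 endoderm and yolk sac genes 3 rose in RepB-/- cells and 6 in RepB+/- cells, and none fell. Of 9 neural genes 2 rose and 2 fell in RepB-/-, and 3 rose and 2 fell in RepB+/-. Of 4 blood genes 3 rose in RepB-/- and 2 in RepB+/-, and of 4 endothelial genes 2 fell in RepB-/- and 1 rose and 1 fell in RepB+/-. Of the 10 fibroblast genes 3 rose and 1 fell in each genotype. The 10 fibroblast markers summed to 21122 and 24138 CPM in RepB-/-, 18642 and 31567 CPM in RepB+/- and 21334 and 25531 CPM in WT, and none was at 0 in an ES library. In RepB MEF and WT MEF they summed to 34559 and 37664 CPM, while the pluripotency and cardiac sums were at or below 1.07 CPM in both. The part of these cell types in the results below was not tested, and in such bulk libraries fewer cells of a type and less RNA per cell cannot be told apart.

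Many promoters of the duplicated families share a motif, and the sequences below show it. RefSeq promoter windows (GRCm38.p6, 250 bases before to 50 after the start) were matched for 102 of the 119 genes, 93 by symbol and 9 by an older symbol, and for 19 of the 20 family genes. The letters CACGTG, an E-box that reads the same on both strands, occur in 12 of the 19 family promoters (63.2%), in 12 of the 83 other matched genes of the stretch (14.5%), in 7.84% of 944 other X-linked genes and in 8.09% of all 27025 genes of the table. This motif was chosen after the family promoters had been seen. The 12 windows of 30 bases start 17 bases before the motif and are given on the strand of the gene, with CACGTG in capitals and, where it stands 7 or 9 bases before it, TGACG in capitals too.
Armcx1: actggTGACGtgcccctCACGTGagccgaa
Armcx4: cgaTGACGcggagccccCACGTGacccgga
Armcx6: actggTGACGtggctgtCACGTGaccaaga
Bex1: gcttcTGACGcaagtggCACGTGactagcc
Bex4: gcttcTGACGcaagtggCACGTGactagcc
Ngfrap1: cagTGACGcagggccctCACGTGacccggg
Tceal1: ctgTGACGcgctcccctCACGTGaccagga
Tceal3: tcgggTGACGcggtgttCACGTGaccggcc
Tceal5: actggTGACGttcctgtCACGTGatcagga
Tceal6: tagggTGACGctttgctCACGTGactggct
Tceal7: gaagatgacataatcctCACGTGattagaa
Tceal8: attgaTGACGcgatcctCACGTGaccagca

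All 12 windows have an A after CACGTG, 8 have TGACG 7 bases before it, and 3 have it 9 bases before. Tceal7 has no TGACG at either distance. The motif starts between 60 bases before and 27 bases after the listed start of transcription. Bex1 (chrX:136215504-136215533, minus strand, GRCm38.p6) and Bex4 (chrX:136138970-136138999, plus strand) have identical windows. Counted on both strands, the pair of motifs at 7 or 9 bases occurs in 11 of 19 family promoters (57.9%) and in 1 of the 83 other matched genes of the stretch (1.2%), B230119M05Rik, whose promoter window covers the Armcx4 window from the opposite strand. It occurs in none of the 944 other X-linked genes and in 23 of 27025 genes (0.0851%) in all. The TGACG and its 2 distances were taken from these same family windows. The high share in the families therefore follows in part from that choice and is a description. The 3 Gprasp family promoters have no CACGTG, nor have the matched promoters of Armcx2, Armcx5, Bex2 and Wbp5. Such a match describes letters in a window and shows no binding.

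Most genes of the stretch were read almost wholly from CAST in WT cells, while RepB-/- and RepB+/- cells had a far larger part of their reads from 129. For the 50 genes that averaged at least 20 allelic reads per ES library, the median 129 share was 27.7% and 26.6% in RepB-/- libraries, 24.9% and 21.2% in RepB+/- libraries and 3.69% and 4.01% in WT libraries. The 4 RepB libraries lay far above both WT libraries, and the RepB-/- libraries lay above the RepB+/- ones. The means were 27.2% ± 0.814 (SD, n = 2) in RepB-/-, 23.0% ± 2.58 in RepB+/- and 3.85% ± 0.227 in WT. RepB-/- lay 23.3 percentage points above WT and RepB+/- 19.2 points above it. The exact two-sided permutation p was 0.33 for both, the smallest that 2 libraries against 2 can give.

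The shares stayed below those of the rest of the chromosome. Over 326 other X-linked genes without Xist the median 129 share was 36.0% ± 0.872 (SD, n = 2) in RepB-/-, 34.0% ± 3.23 in RepB+/- and 6.18% ± 0.878 in WT. In each library the genes of the stretch lay lower, the stretch minus the others being -8.93 and -8.84 percentage points in RepB-/-, -11.5 and -10.6 points in RepB+/- and -1.87 and -2.79 points in WT. Set against WT, this difference moved by -6.56 points in RepB-/- and by -8.69 points in RepB+/- (exact permutation p = 0.33 each, again the smallest possible). With reads pooled over genes in place of medians it moved by -10.4 and -9.59 points. This gap depends on the scale. As log2 of the 129 to CAST ratio, the median change from WT (edgeR fit below) over the 50 genes was 3.08 in RepB-/- and 2.84 in RepB+/-. Over the other X-linked genes it was 2.88 in RepB-/- and 2.90 in RepB+/-. A mean share under 20% in RepB-/- was found for 16 of the 50 genes (32%) and for 47 of the 326 others (14.4%).

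**Figure D1:**
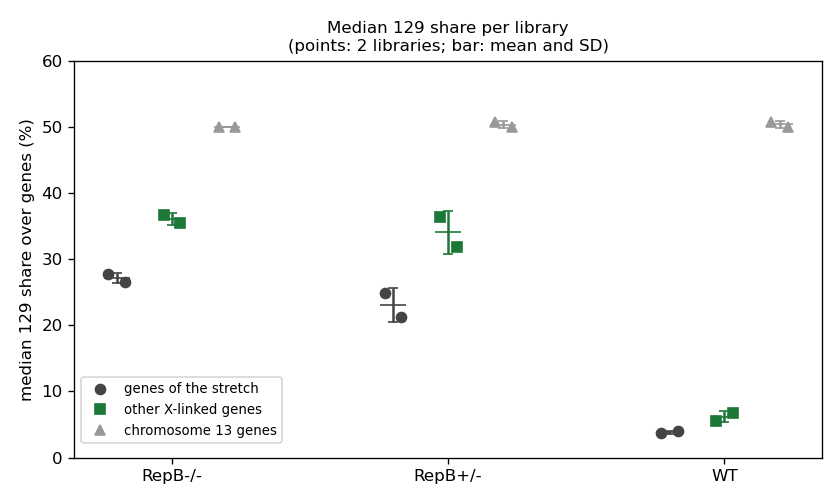
Median 129 share over genes (%, y axis) by ES genotype (x axis) for the 50 genes of the stretch, 326 other X-linked genes and 418 genes of chromosome 13. Points are the 2 libraries of a genotype and bars the mean and SD; the stretch sits at 27.2%, 23.0% and 3.85% in RepB-/-, RepB+/- and WT, below the other X-linked genes in each, while chromosome 13 stays near 50%.

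Each gene's ratio of 129 to CAST reads was then tested between genotypes with edgeR (Benjamini-Hochberg adjusted p of 0.05 over 11597 genes). In this test 25 of the 50 genes shifted toward 129 in RepB-/- against WT and 23 in RepB+/- against WT. Over all genes tested 2.24% and 2.1% were called in this direction, and over the other X-linked genes 64.1% and 61.7%. None of the 50 shifted toward CAST in edgeR or in DESeq2, with 0 genes at an unadjusted p under 0.05 in that direction (background 0.19% and 0.293% of all genes, 0% of other X-linked genes in both). Both RepB-/- libraries lay above both WT libraries for 44 of 50 genes, where 14.7% of all genes and 90.5% of other X-linked genes did so. For RepB+/- it was 42 genes, against 14.7% and 82.8%. DESeq2 called 18 and 15 genes toward 129, and gave no adjusted p to 15 of the 50 in RepB-/-. In this direction it called 162 and 147 of all 11597 genes, and 144 and 132 of the 326 other X-linked genes. The 2 comparisons share the WT libraries.

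Among the families the Armcx genes carried low 129 shares, with a median over 6 genes of 19.6% ± 1.35 (SD, n = 2) in RepB-/-, 18.5% ± 3.26 in RepB+/- and 2.05% ± 0.585 in WT. Of the 6, 4 shifted toward 129 in RepB-/- and 3 in RepB+/-. Armcx2 (mm9 exon chrX:131338681-131341552, minus strand), the most highly expressed of the family per length at 43.2 to 52.1 RPKM in ES libraries, had 17.9% and 16.1% of its reads from 129 in RepB-/-, 18.4% and 15.3% in RepB+/- and 1.46% and 2.45% in WT. All 4 RepB libraries lay above both WT libraries. Against WT, the log2 of its 129 to CAST ratio was 3.42 higher in RepB-/- (SE 0.33, edgeR adjusted p = 3.47e-23). In RepB+/- it was 3.44 higher (SE 0.34, adjusted p = 9.61e-22).

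Armcx1 and Armcx4, neighbours of Armcx2, shifted in both genotypes too. Armcx1 had 17.1% and 21.6% in RepB-/-, 18.7% and 11.9% in RepB+/- and 1.81% and 2.47% in WT. Armcx4 had 19.3% and 19.5% in RepB-/-, 22.9% and 17.1% in RepB+/- and 1.33% and 0% in WT. Armcx6 stood at 16.8% and 18.5% in RepB-/-, where it was called in edgeR but not in DESeq2 or without WT replicate 1, and at 11.9% and 3.70% in RepB+/-, where it was not (adjusted p = 0.0820). It had no 129 read among 113 allelic reads in WT, which allows a share of up to 2.65%. Armcx3 and Armcx5 had higher shares than these in every library, WT included, and neither was called. Armcx3 had 44.8% and 48.6% in RepB-/-, 57.4% and 45.2% in RepB+/- and 30.4% and 45.8% in WT. Armcx5 had 41.1% and 31.1% in RepB-/-, 46.7% and 48.3% in RepB+/- and 16.1% and 15.8% in WT. The exon listed for Armcx5 has the same start and end as that of Gprasp1, so reads may be shared between these genes and the Armcx5 values are uncertain.

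The Gprasp family lay higher, with a median over 3 genes of 32.3% ± 0.436 (SD, n = 2) in RepB-/-, 34.1% ± 2.66 in RepB+/- and 4.39% ± 0.812 in WT. Gprasp1, a receptor-sorting protein gene, had 32.6% and 32.3% from 129 in RepB-/-, 36.0% and 32.2% in RepB+/- and 3.45% and 4.96% in WT, with no overlap between the RepB and WT libraries. The log2 ratio was 3.49 higher in RepB-/- than in WT (SE 0.29, edgeR adjusted p = 6.67e-31) and 3.62 higher in RepB+/- (SE 0.29, adjusted p = 7.93e-32). Bhlhb9, also known as Gprasp3, shifted in both genotypes, with 36.2% and 31.2% in RepB-/-, 35.1% and 16.9% in RepB+/- and 3.82% and 3.85% in WT. Its RepB+/- call was lost in DESeq2 (adjusted p = 0.172) and without RepB+/- replicate 1 (edgeR adjusted p = 0.306). Gprasp2 was called in RepB+/- (39.4% and 55.6%) but not in RepB-/- (29.7% and 32.0%, adjusted p = 0.0916), against 11.8% and 11.1% in WT, and its RepB+/- call was lost in DESeq2 (adjusted p = 0.0878). Between the RepB genotypes none of the 3 was called.

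The Bex family differed widely among its 4 members, with a median of 33.3% ± 2.24 (SD, n = 2) in RepB-/-, 33.6% ± 5.65 in RepB+/- and 15.3% ± 1.99 in WT. Of the 4, 2 shifted toward 129 in RepB-/- and 1 in RepB+/-. Bex1, expressed in ES libraries at 107 to 172 RPKM, had 25.3% and 22.6% from 129 in RepB-/-, 22.0% and 22.9% in RepB+/- and 8.10% and 9.07% in WT, and shifted in both genotypes (log2 change 1.76 in RepB-/-, SE 0.26, edgeR adjusted p = 1.10e-09, and 1.62 in RepB+/-, SE 0.27, adjusted p = 1.03e-07). Bex4 had 16.9% and 20.9% in RepB-/-, 19.9% and 18.4% in RepB+/- and 19.7% and 5.26% in WT, so its groups overlapped and it was not called. Ngfrap1, named Bex3 in RefSeq, had allelic reads almost only from 129, at 98.5% and 99.7% in RepB-/-, 99.2% and 99.2% in RepB+/- and 100% and 97.5% in WT. It was the most highly expressed gene of the stretch per length, at 400 to 492 RPKM. Of its 12325 reads in RepB-/- replicate 1, 448 were given to 129 and 7 to CAST. In that library 27.4% of all reads had a known allele. The Ngfrap1 share thus rests on a small part of its reads and is uncertain.

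Bex2 had 38.2% and 47.2% from 129 in RepB-/-, 37.3% and 52.4% in RepB+/- and 6.25% and 24.3% in WT. It shifted toward 129 in RepB-/- (edgeR adjusted p = 0.0432), a call lost in DESeq2, without either RepB-/- library and without WT replicate 1, and had an adjusted p of 0.0917 in RepB+/-. Bex genes arose by duplication, and counting may split or drop reads of genes that are alike. The window shared by Bex1 and Bex4 is promoter sequence, and the exons were not compared.

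In the Tceal family 4 of 7 genes had enough allelic reads, with a median of 29.4% ± 2.36 (SD, n = 2) in RepB-/-, 26.8% ± 3.02 in RepB+/- and 10.7% ± 1.40 in WT, and 2 of the 4 shifted in each genotype. Tceal8 had 28.6% and 26.6% from 129 in RepB-/-, 27.8% and 14.3% in RepB+/- and 2.58% and 3.93% in WT, and shifted in both genotypes (log2 change 3.56 in RepB-/-, SE 0.34, edgeR adjusted p = 4.64e-23, and 3.19 in RepB+/-, SE 0.36, adjusted p = 1.50e-16). Wbp5, named Tceal9 in RefSeq, had 42.0% and 36.5% in RepB-/-, 40.5% and 35.0% in RepB+/- and already 19.0% and 24.1% in WT. In RepB-/- it shifted by 1.25 (SE 0.22, edgeR adjusted p = 1.24e-06), and in RepB+/- by 1.19 (SE 0.23, adjusted p = 1.34e-05), with no overlap between RepB and WT libraries. Both calls were lost in DESeq2, and the RepB+/- call also without WT replicate 1. Tceal3 had 26.9% and 35.6% in RepB-/-, 30.1% and 42.5% in RepB+/- and 16.9% and 19.5% in WT, and was not called.

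Tceal1 stood out by its spread: 24.5% and 22.2% in RepB-/-, 5.66% and 0% in RepB+/- and 0% in both WT libraries, where 41 allelic reads allow a share of up to 7.32%. It was not called against WT (edgeR adjusted p = 0.104 in RepB-/- and 1 in RepB+/-). Tceal5, Tceal6 and Tceal7 were expressed at 0.386 to 7.00 RPKM and fell below the allelic read minimum. The 13 measured genes of the stretch whose promoter holds CACGTG had median shares of 23.4% in RepB-/-, 20.0% in RepB+/- and 3.26% in WT, and the 35 without it 27.1% in RepB-/-, 26.0% in RepB+/- and 4.01% in WT.

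**Figure D2:**
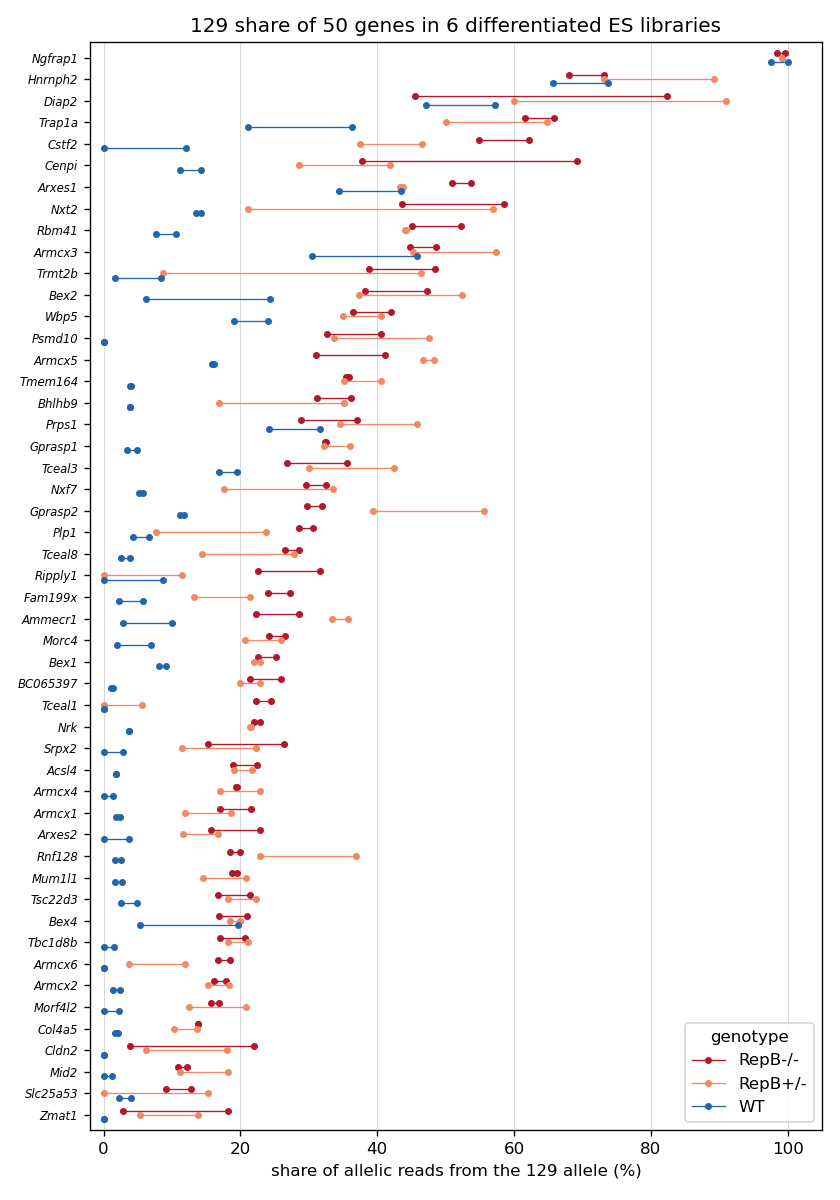
Share of allelic reads from the 129 allele (%, x axis) for each of the 50 genes (rows, ordered by the RepB-/- mean). Points are the 2 libraries of RepB-/- (red), RepB+/- (orange) and WT (blue), joined by a line; most genes have WT points near 0 and RepB points between 10% and 60%, and Ngfrap1 sits near 100% in all 3 genotypes.

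Outside the families, genes that handle RNA held the highest 129 shares of the role groups with more than 1 measured gene. Their median over 6 genes was 51.1% ± 1.01 (SD, n = 2) in RepB-/-, 37.9% ± 12.2 in RepB+/- and 9.67% ± 2.34 in WT. Cstf2, which encodes a subunit of the complex that cleaves mRNA before polyadenylation, had 54.8% and 62.2% from 129 in RepB-/-, 46.6% and 37.5% in RepB+/- and 12.1% and 0% in WT. It shifted toward 129 in RepB-/- (log2 change 3.60, SE 1.01, edgeR adjusted p = 0.0161), a call lost when any 1 of the 4 RepB-/- and WT libraries was left out, and not in RepB+/- (adjusted p = 0.227). Nxf7, a relative of mRNA export factors, had 29.6% and 32.5% in RepB-/-, 33.5% and 17.5% in RepB+/- and 5.20% and 5.83% in WT, and shifted in both genotypes, a call lost in RepB+/- in DESeq2 and without RepB+/- replicate 1.

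The gene of heterogeneous nuclear ribonucleoprotein H2, Hnrnph2, which binds G-rich RNA, had 68.0% and 73.2% in RepB-/-, 73.1% and 89.2% in RepB+/- and 65.6% and 73.7% in WT. These groups overlapped and it was not called. It has a close relative on another chromosome, so its allelic reads are uncertain. The other high shares outside the families in RepB-/- were those of Diap2 (the formin gene Diaph2, 63.9% ± 26.1), Trap1a (63.7% ± 3.05), the kinetochore gene Cenpi (53.5% ± 22.3) and Arxes1 (52.3% ± 1.93; SD, n = 2 each).

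At the other end of the order stood Col4a5, which encodes a collagen IV chain of basement membranes. It had 13.8% and 13.7% of reads from 129 in RepB-/-, 13.6% and 10.4% in RepB+/- and 1.69% and 2.11% in WT. With 2969, 2086 and 1669 allelic reads in RepB-/-, RepB+/- and WT it is among the best measured genes of the stretch, and its shift was called in both genotypes (log2 change 3.06 in RepB-/-, SE 0.29, edgeR adjusted p = 5.91e-23, and 2.87 in RepB+/-, SE 0.31, adjusted p = 1.77e-18). The other low means in RepB-/- were those of Morf4l2, a chromatin-associated MORF4-like gene (16.3% ± 0.855), the tight junction gene Cldn2 (12.9% ± 12.7), the microtubule-binding gene Mid2 (11.6% ± 0.909), the mitochondrial carrier gene Slc25a53 (11.0% ± 2.66) and the zinc finger gene Zmat1 (10.5% ± 10.9; SD, n = 2 each). Neither these nor their RepB+/- values were called, with 44 to 101 allelic reads in WT for 4 of them and 14 for Cldn2. Of 9577 Morf4l2 reads in RepB-/- replicate 1, 11 were given to 129 and 59 to CAST, so its share rests on a small part of them.

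Several well-measured genes of other roles shifted in both genotypes. Nrk, which encodes a kinase of the germinal centre kinase family, had 22.9% and 22.0% from 129 in RepB-/-, 21.6% and 21.4% in RepB+/- and 3.67% and 3.71% in WT, over 6260, 4193 and 4937 allelic reads. Its log2 ratio was 2.92 higher in RepB-/- than in WT (SE 0.20, edgeR adjusted p = 7.88e-47) and 2.84 higher in RepB+/- (SE 0.20, adjusted p = 4.95e-42). Tmem164, a transmembrane protein gene, had 35.9% and 35.5% in RepB-/-, 40.6% and 35.1% in RepB+/- and 3.92% and 4.02% in WT. Acsl4, which activates long-chain fatty acids, had 22.4% and 18.9% in RepB-/-, 19.1% and 21.7% in RepB+/- and 1.87% and 1.82% in WT. Psmd10, which encodes gankyrin, a chaperone of proteasome assembly, had 32.7% and 40.6% in RepB-/- and 33.8% and 47.6% in RepB+/-, and in WT no 129 read among 60, which allows up to 5%. Psmd10 was called in both genotypes, but in neither without WT replicate 1. The other genes outside the families called in both were Trmt2b, BC065397, Mum1l1, Rnf128, Tbc1d8b, Morc4 and Tsc22d3. Of these, Mum1l1 kept both calls in all 10 alternatives. Trmt2b lost both calls in DESeq2 and without WT replicate 1, and its RepB+/- call also without RepB+/- replicate 1. BC065397 lost its RepB+/- call in DESeq2 and without WT replicate 1. Without WT replicate 1 the RepB-/- calls of Rnf128 and Tbc1d8b were lost, and in DESeq2 the RepB-/- call of Tsc22d3 and the RepB+/- call of Morc4. Fam199x was called in RepB-/- and Ammecr1 in RepB+/-. Both calls were lost in DESeq2 and without WT replicate 1, that of Fam199x also without RepB-/- replicate 2 and that of Ammecr1 without RepB+/- replicate 1.

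The shares did not run evenly along the stretch. Between 130 and 131 Mb the measured genes were Cstf2, Trmt2b, Cenpi and Srpx2. The median over these 4 genes was 46.8% ± 5.22 (SD, n = 2) in RepB-/-, 34.8% ± 13.2 in RepB+/- and 5.81% ± 2.32 in WT. Srpx2 lay below the others in RepB-/-, at 26.3% and 15.2%. Between 131 and 132 Mb, which holds most Armcx genes, it was 18.7% ± 1.10 in RepB-/-, 17.0% ± 2.38 in RepB+/- and 1.95% ± 0.706 in WT over 7 genes. Between 132 and 133 Mb, with the Gprasp, Bex and most Tceal genes, it was 32.3% ± 0.436 in RepB-/-, 34.1% ± 2.66 in RepB+/- and 8.59% ± 0.691 in WT over 13 genes. The remaining parts between 133 and 140 Mb held medians of 22.9% to 25.0% in RepB-/-, 16.6% to 24.7% in RepB+/- and 2.33% to 3.12% in WT. These parts were drawn with the values known and are a description.

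**Figure D3:**
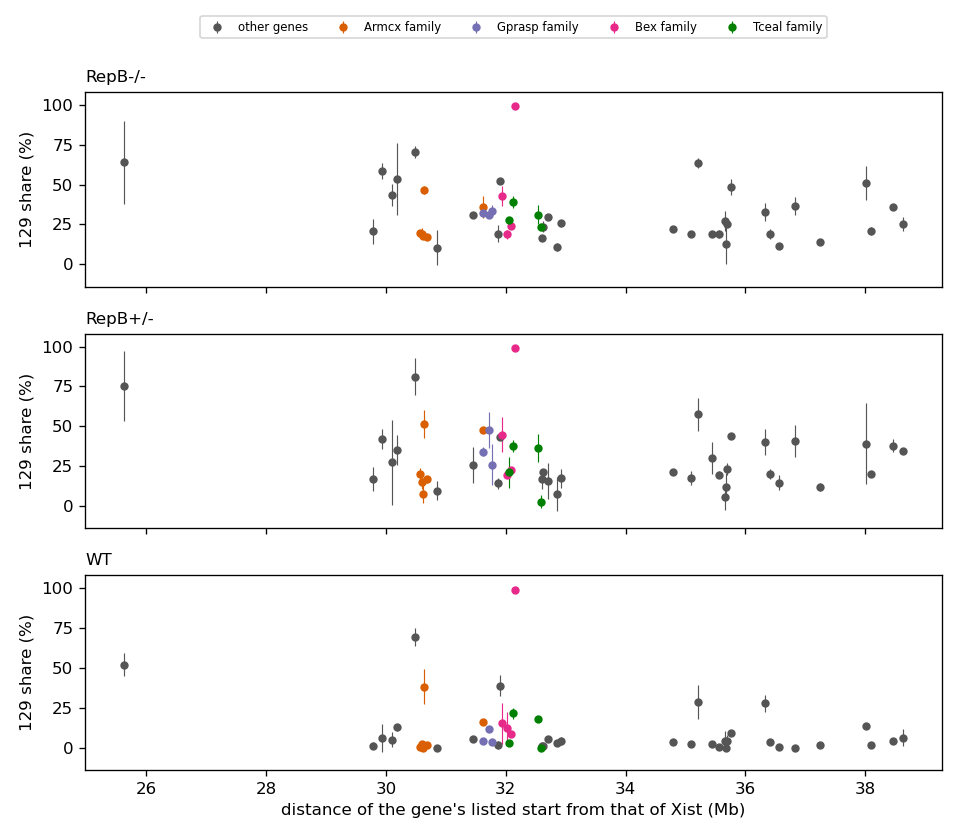
Mean 129 share with SD of 2 libraries (%, y axis) of the 50 genes against the distance of each gene's listed start from that of Xist (Mb, x axis), with 1 panel per ES genotype. Colours mark the 4 families; in RepB-/- 4 of the 5 Armcx genes nearest 31 Mb lie below 20% and Armcx3 lies higher, and Ngfrap1 lies near 100% in all panels.

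In WT libraries 13 of the 50 genes already had over 10% of their reads from 129 in both replicates (26%), against 22.4% of the other X-linked genes. They were Diap2, Cenpi, Hnrnph2, Armcx3, Armcx5, Gprasp2, Arxes1, Wbp5, Ngfrap1, Tceal3, Trap1a, Prps1 and Nxt2. Without these 13, the median over the other 37 genes was 22.6% ± 0.483 (SD, n = 2) in RepB-/-, 19.5% ± 2.75 in RepB+/- and 2.37% ± 0.179 in WT. The same limit applied to the other X-linked genes left 253 with medians of 32.5% ± 1.47 in RepB-/-, 30.8% ± 2.79 in RepB+/- and 4.45% ± 0.140 in WT.

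Scaled by library size, the reads from the 129 chromosome carried the difference. The median log2 change of 129 reads against the WT mean over the 50 genes, with a pseudocount of 0.05 CPM, came to 2.54 in RepB-/- (SD 0.0722, n = 2) and to 2.33 in RepB+/- (SD 0.394). CAST reads had medians of -0.09 ± 0.0316 in RepB-/- and 0.07 ± 0.0543 in RepB+/-. All reads together had 0.20 ± 0.00966 in RepB-/- and 0.32 ± 0.115 in RepB+/-. Over 326 other X-linked genes 129 reads had medians of 2.61 in RepB-/- and 2.51 in RepB+/-. Their CAST reads had -0.05 and -0.10, and all their reads together 0.42 and 0.38. Summed over the 119 genes, 129 reads made up 173 and 173 CPM in RepB-/-, 197 and 155 CPM in RepB+/- and 50.5 and 53.3 CPM in WT. Summed CAST reads made up 451 and 473 CPM in RepB-/-, 496 and 471 CPM in RepB+/- and 561 and 541 CPM in WT.

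Nrk had more allelic reads than any other gene of the stretch. Its 129 reads stood at 27.5 and 29.5 CPM in RepB-/-, 26.8 and 23.1 CPM in RepB+/- and 5.59 and 5.76 CPM in WT. Its CAST reads stood at 92.5 and 104 CPM in RepB-/-, 97.4 and 85.1 CPM in RepB+/- and 147 and 149 CPM in WT, lower in all 4 RepB libraries than in both WT libraries. The CAST reads of Armcx2 stood at 36.3 and 37.6 CPM in RepB-/-, 34.8 and 36.0 CPM in RepB+/- and 37.9 and 38.1 CPM in WT. Its 129 reads stood at 7.92 and 7.21 CPM in RepB-/-, 7.84 and 6.50 CPM in RepB+/- and 0.559 and 0.960 CPM in WT. Across the 50 genes, the gain in share and the change of all reads were weakly related (Pearson r 0.307 and Spearman rho 0.263 in RepB-/-, 0.194 and 0.192 in RepB+/-). Genes are not independent replicates and both measures come from the same libraries.

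Counted over all reads, 77 genes passed the filter on low counts and 15 of them rose in RepB-/- against WT, while 1, Nrk, fell (edgeR, adjusted p of 0.05 over 15149 genes). Of all genes tested 7.27% rose and 5.49% fell, and of the other X-linked genes 33.5% and 5.79%. In RepB+/- against WT 15 rose and 3 fell, Nxf7, Nup62cl and Nrk, where 9.12% and 6.84% of all genes and 35.7% and 4.55% of other X-linked genes did so. The median log2 change over the 77 genes was 0.14 in RepB-/- and 0.30 in RepB+/-, beside 0.01 and 0.02 over all genes. Over the other X-linked genes it was higher, at 0.39 in RepB-/- and 0.40 in RepB+/-. Groups without overlap were common on this measure. Both RepB-/- libraries lay above both WT libraries for 37 of the 77 genes, 39.6% of all genes and 70.2% of other X-linked genes. For RepB+/- it was 41 genes, 35.2% and 66.5%. Both libraries lay below for 10 genes, 19.3% and 9.09% in RepB-/-, and for 7 genes, 19.6% and 9.5% in RepB+/-. The counts rest on few libraries. With either WT library left out fewer genes rose in both comparisons, in the stretch and over all genes. Without WT replicate 1 or WT replicate 2 the median log2 change over the 77 genes was 0.22 and 0.04 in RepB-/-. In RepB+/- it was 0.35 and 0.21. Over the other X-linked genes it was 0.38 and 0.36 in RepB-/- and 0.42 and 0.38 in RepB+/-. Without RepB-/- replicate 2 the median over the 77 genes was 0.11 in RepB-/-, and fewer genes rose there and over all genes. The log2 change of Nrk in RepB-/- ran between -0.475 and -0.353 over the alternative runs.

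By role, 4 of 8 tested RNA handling genes rose in each genotype and 1, Nxf7, fell in RepB+/-. Of 8 enzyme, lysosome and trafficking genes 3 rose in RepB-/- and 4 in RepB+/-. Of 13 signalling and cell surface genes 2 rose and 1 fell in RepB-/-, and 3 rose and 1 fell in RepB+/-. Of 3 matrix genes none was called in edgeR. Of the 20 tested family genes 2 rose in RepB-/-, Armcx5 and Bhlhb9, and 1 in RepB+/-, Armcx5, and none fell. Bhlhb9 was not called when either RepB-/- replicate or either WT replicate was left out. The RepB-/- call of Armcx5 was lost without RepB-/- replicate 2, WT replicate 1 or WT replicate 2. Its RepB+/- call was lost without RepB+/- replicate 1 or WT replicate 2. Its listed exon is also that of Gprasp1, so its level is uncertain. Of the 57 other genes 13 and 14 rose, and 1 and 3 fell.

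Cstf2 had 89.2 and 89.3 CPM in RepB-/-, 103 and 80.7 CPM in RepB+/- and 53.4 and 58.0 CPM in WT, with no overlap between RepB and WT libraries. In RepB-/- it rose by 0.60 on the log2 scale (SE 0.11, edgeR adjusted p = 0.00248), and in RepB+/- by 0.65 (SE 0.11, adjusted p = 0.00146). Without WT replicate 1 the RepB-/- call was lost (adjusted p = 0.0576). Hnrnph2 had 46.6 and 43.0 CPM in RepB-/-, 51.9 and 50.9 CPM in RepB+/- and 29.0 and 28.5 CPM in WT. Hnrnph2 rose in RepB-/- by 0.56 (SE 0.11, adjusted p = 0.00385, 0.0515 without WT replicate 1), and in RepB+/- by 0.76 (SE 0.11, adjusted p = 0.000421). Its 129 share, given above, was not called. Trmt2b, a tRNA methyltransferase gene, had 34.7 and 32.2 CPM in RepB-/-, 29.0 and 27.2 CPM in RepB+/- and 21.5 and 19.7 CPM in WT, and was called in RepB-/- (0.61, SE 0.12, adjusted p = 0.00366) but not in RepB+/- (0.37, adjusted p = 0.0551).

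Among the enzymes, Psmd10 had 26.1 and 21.7 CPM in RepB-/-, 24.2 and 20.0 CPM in RepB+/- and 14.3 and 12.4 CPM in WT, all RepB libraries above both WT ones. Psmd10 rose in RepB-/- by 0.75 (SE 0.15, edgeR adjusted p = 0.0032). In RepB+/- it rose by 0.65 (SE 0.15, adjusted p = 0.00853), a call lost without RepB+/- replicate 1 or WT replicate 2. Prps1, which makes the ribose precursor of nucleotides, had 20.3 and 18.2 CPM in RepB-/-, 26.8 and 13.7 CPM in RepB+/- and 9.55 and 9.92 CPM in WT. Prps1 rose in RepB-/- by 0.91 (SE 0.21, adjusted p = 0.00914), and in RepB+/- by 1.03 (SE 0.21, adjusted p = 0.0043). The RepB-/- call was lost without RepB-/- replicate 1 or WT replicate 1 and the RepB+/- call without RepB+/- replicate 1, where the value was 0.50. Morf4l2, the gene of this group with the most reads, had 341 and 320 CPM in RepB-/-, 361 and 384 CPM in RepB+/- and 273 and 283 CPM in WT, and was not called.

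Cldn2 and Trap1a had the lowest adjusted p-values of the stretch in both comparisons. Cldn2, which encodes a claudin of leaky epithelia, had 6.74 and 6.24 CPM in RepB-/-, 8.51 and 6.87 CPM in RepB+/- and 2.19 and 2.00 CPM in WT, with no overlap between RepB and WT libraries. In RepB-/- it rose by 1.54 (SE 0.23, edgeR adjusted p = 0.000484), and in RepB+/- by 1.81 (SE 0.24, adjusted p = 0.000162). Most of its allelic reads came from CAST, at 1.75 and 1.48 CPM in RepB-/-, 2.20 and 1.87 CPM in RepB+/- and 0.508 and 0.320 CPM in WT, so the CAST level was higher as well. Trap1a, which encodes the tumour antigen P1A and is known from germ cells and placenta, had 29.2 and 19.5 CPM in RepB-/-, 38.3 and 19.7 CPM in RepB+/- and 9.40 and 7.84 CPM in WT. Trap1a rose in RepB-/- by 1.41 (SE 0.23, adjusted p = 0.00107), and in RepB+/- by 1.70 (SE 0.24, adjusted p = 0.000263). Both genes stayed called under each alternative run. Taf7l and Xkrx, also listed with germ cell genes, were at or below 1.52 CPM in each ES library and were not called.

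Irs4, an adaptor of the insulin receptor family, had its highest values in RepB+/-. Its levels were 2.67 and 4.06 CPM in RepB-/-, 9.15 and 6.87 CPM in RepB+/- and 2.24 and 2.56 CPM in WT. It rose in RepB+/- against WT by 1.70 (SE 0.28, edgeR adjusted p = 0.000858) and was not called in RepB-/- (0.41, adjusted p = 0.384). The difference of RepB-/- from RepB+/- was -1.29 (SE 0.25, adjusted p = 0.0746), short of the threshold in edgeR. It passed with no filter on low counts, in DESeq2, with the replicate block and without RepB+/- replicate 2.

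The 3 genes that fell are all expressed well in these cultures. Nrk had 485 and 516 CPM in RepB-/-, 479 and 457 CPM in RepB+/- and 629 and 628 CPM in WT, with no overlap. In RepB-/- it fell by 0.41 (SE 0.12, edgeR adjusted p = 0.0384), and in RepB+/- it fell by 0.50 (SE 0.12, adjusted p = 0.0136). Both calls were lost when either WT library was left out, and the RepB-/- call also when either RepB-/- library was. Nxf7 had 111 and 69.6 CPM in RepB-/-, 90.3 and 60.1 CPM in RepB+/- and 126 and 117 CPM in WT. It fell in RepB+/- by 0.76 (SE 0.17, adjusted p = 0.00816, 0.0707 in DESeq2) and was not called in RepB-/- (adjusted p = 0.0567). Nup62cl, a nucleoporin-like gene, had 42.8 and 32.4 CPM in RepB-/-, 36.6 and 20.0 CPM in RepB+/- and 55.2 and 40.0 CPM in WT. It fell in RepB+/- by 0.79 (SE 0.19, adjusted p = 0.0126), a call lost in DESeq2 and without WT replicate 1.

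**Figure D4:**
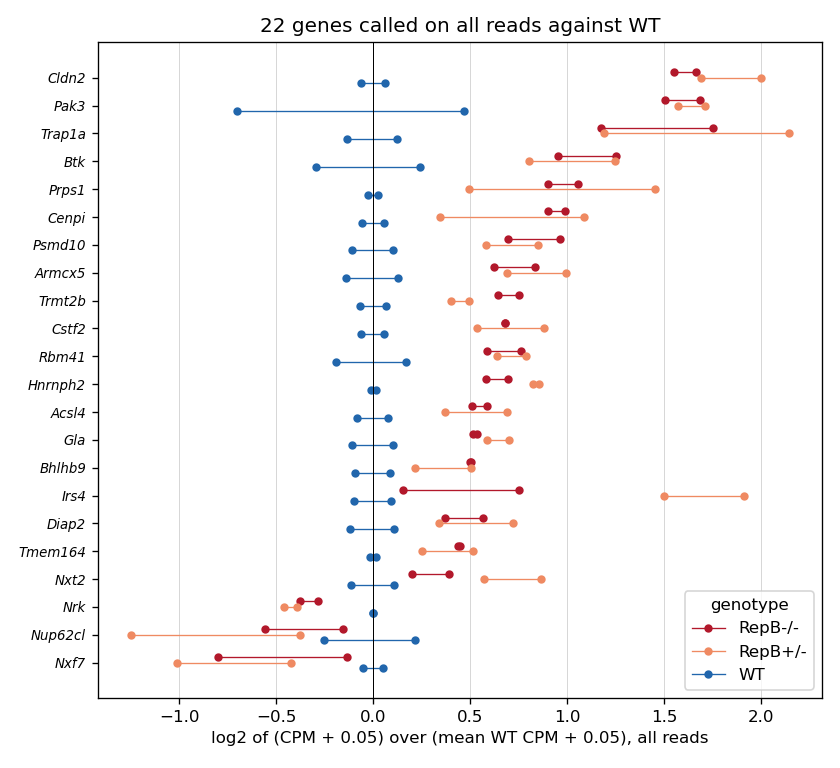
Level of all reads per ES library for the 22 genes of the stretch called in either comparison with WT, as log2 of (CPM + 0.05) over the WT mean + 0.05 (x axis). Points are the 2 libraries of RepB-/- (red), RepB+/- (orange) and WT (blue). Right of both WT libraries in both RepB genotypes lie 19 genes, Nrk and Nxf7 lie left in both, and Nup62cl lies left in RepB+/-. These genes were picked by their calls. Of all genes, 39.6% in RepB-/- and 35.2% in RepB+/- had both libraries above both WT ones.

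Set against each other, RepB-/- and RepB+/- cells differed by less than either did from WT in median 129 share. The median 129 share was 4.12 percentage points higher in RepB-/- (exact permutation p = 0.33, the smallest possible), with both RepB-/- libraries above both RepB+/- libraries. Without RepB+/- replicate 2 it was 2.30 points. With reads pooled over genes it was 0.663 points, and the 27.8% and 26.8% of RepB-/- overlapped with the 28.4% and 24.8% of RepB+/-. No gene of the stretch was called for the 129 to CAST ratio in edgeR or DESeq2, with 1, Tceal1, at an unadjusted p under 0.05 in edgeR and 0 in DESeq2. Background counts were 0.19% toward 129 and 0.112% toward CAST over all genes, and 0.307% and 0% over the other X-linked genes. On all reads edgeR called none of 77, with 7 at an unadjusted p under 0.05, all lower in RepB-/-. Of all 15149 genes 1003 had such a p, in either direction. DESeq2 called 1 of the 77, Irs4 (log2 -1.27, adjusted p = 0.0475), and 17 of all genes lower. In edgeR 0.0198% of all genes were called higher and 0.066% lower, and 0% of other X-linked genes in either direction.

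In MEF most genes of the stretch were read almost wholly from the CAST chromosome in both lines, as were most other X-linked genes. Of 27 genes with at least 20 allelic reads in each library, 23 had at most 5% of reads from 129 in RepB MEF and 23 in WT MEF, and the median share was 0% in both. Reads of all genes pooled gave 5.85% (95% exact Clopper-Pearson interval 5.22% to 6.53%, 294 of 5026) in RepB MEF and 4.21% (3.53% to 4.97%, 131 of 3114) in WT MEF. With 1 library per line there is no replicate check, and intervals cover counting error only. Over the other X-linked genes the pooled shares were 4.85% in RepB MEF and 3.58% in WT MEF. Of 183 of them with at least 20 allelic reads in each library, 145 in RepB MEF and 146 in WT MEF had at most 5%. Their median shares were 0.482% and 0.365%.

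In MEF 4 of the 27 genes had over 10% from 129, and they did so in both lines. Of the 183 other X-linked genes 27 did so in RepB MEF and 23 in WT MEF. Ngfrap1 had 129 of 129 allelic reads (97.2% to 100%) in RepB MEF and 59 of 59 (93.9% to 100%) in WT MEF. These are a small part of its 3843 and 2467 reads, so the share is uncertain here too. Hnrnph2 had 66.0% (50.7% to 79.1%) in RepB MEF and 70.0% (45.7% to 88.1%) in WT MEF. Armcx3 had 36.1% (24.2% to 49.4%) in RepB MEF and 39.1% (19.7% to 61.5%) in WT MEF. The allelic reads given to Hnrnph2 and Armcx3 thus held both alleles in both lines. For Hnrnph2 these are 47 of 823 reads in RepB MEF and 20 of 401 in WT MEF. With its close relative on another chromosome, they do not settle whether Hnrnph2 itself was read from both alleles. Wbp5 had 19.3% (15.7% to 23.3%) in RepB MEF and 20.5% (14.5% to 27.6%) in WT MEF. The intervals of the 2 lines overlapped for each, and all 4 were also among the genes over 10% in both WT ES libraries. Without them, chosen after their values were seen, the pooled share was 0.621% (0.410% to 0.902%) in RepB MEF and 0.561% (0.321% to 0.910%) in WT MEF. The highest share among the rest was that of the kinase gene Pak3 in RepB MEF, 3.74% (1.52% to 7.56%) of 187 reads, against 0.870% (0.0220% to 4.75%) of 115 in WT MEF.

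**Figure D5:**
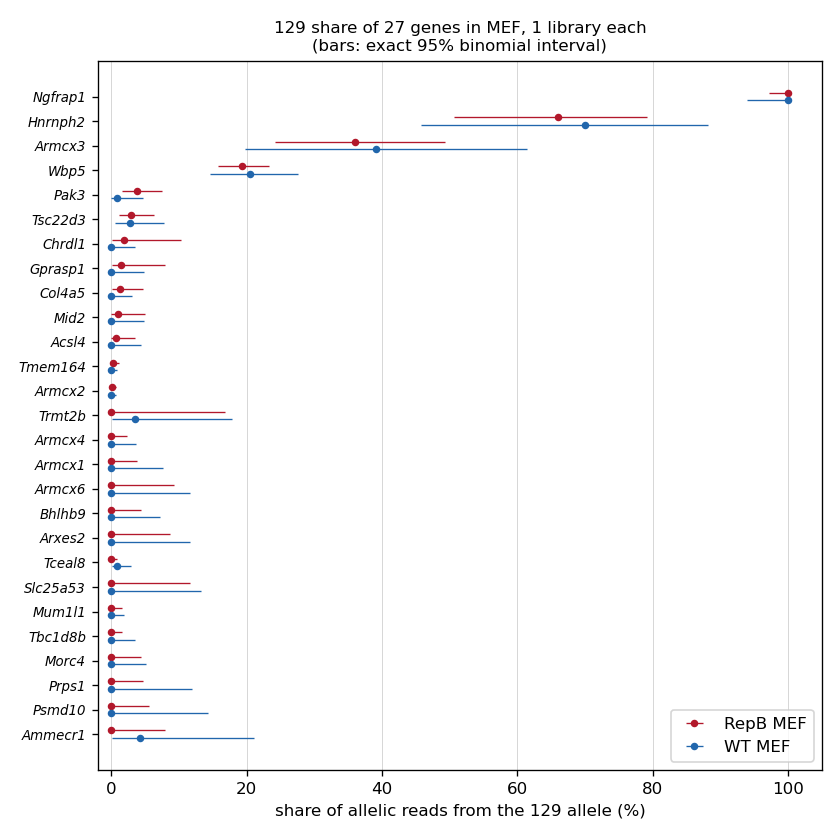
Share of allelic reads from the 129 allele (%, x axis) of the 27 genes with at least 20 allelic reads in both MEF libraries (rows). Points are the RepB MEF (red) and WT MEF (blue) libraries, with exact 95% binomial intervals; Ngfrap1, Hnrnph2, Armcx3 and Wbp5 lie above 10% in both lines and all others below 5%.

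In levels of all reads, 5 of 50 genes lay past 2-fold between the MEF lines. For the 50 genes averaging at least 1 CPM the median log2 ratio of RepB MEF to WT MEF was -0.08 (95% interval from order statistics -0.24 to 0.15), and 0.05 without TMM scaling, which moved the median of all genes to 0.16, against 0.03 with it. Past 2-fold were 2 genes higher in RepB MEF, the ubiquitin ligase gene Rnf128 (190 reads in RepB MEF and 43 in WT MEF, log2 ratio 1.36) and Cldn2 (77 reads in RepB MEF and 21 in WT MEF, 1.07). Lower were 3: the sushi-domain gene Srpx2 (122 reads in RepB MEF and 185 in WT MEF, -1.33), the BMP antagonist gene Chrdl1 (198 reads in RepB MEF and 449 in WT MEF, -1.92) and the tendon gene Tnmd, with 0 reads in RepB MEF and 44 in WT MEF. These 5 include genes chosen after their values were seen. Over all genes 3.33% were past 2-fold higher and 6.47% lower, and over other X-linked genes 2.52% and 8.52%.

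Ratios were then ordered among genes averaging at least 200 MEF reads. The highest were those of Wbp5 (0.62), the Rab regulator gene Tbc1d8b (0.46), Prps1 (0.31), Hnrnph2 (0.29) and Cenpi (0.15). After Chrdl1 the lowest were those of Col4a5 (-0.73), the protocadherin gene Pcdh19 (-0.70), Tmem164 (-0.54) and Trmt2b (-0.47). All of these but Chrdl1 lie within 2-fold. Rnf128 and Cldn2 averaged 116.5 and 49 reads, below that minimum. Chrdl1, Pcdh19 and Pak3 were far more abundant in MEF than in ES libraries, with 10.6, 98.4 and 44.8 CPM in RepB MEF and 37.0, 146 and 38.6 CPM in WT MEF, and at most 0.750, 4.50 and 2.35 CPM in any ES library. Nrk, Nxf7, Trap1a, Bex1, Bex2 and Bex4, which ES cultures express, were at or below 0.107 CPM in both MEF lines.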

How the data were processed

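Of 50 samples, the 8 with RNA-seq were used; the remaining 42 were not analysed here. As deposited, the tables hold whole-number counts per gene and library, for all reads and for reads given to the 129 and CAST alleles. Columns headed mus and cas were read as 129 and CAST, after the background that the labels give. Per the submitters' processing notes the build was mm9 and the tools of the series included TopHat, Novoalign, SAMtools and featureCounts. Their versions, strand setting and handling of multiply mapped reads are not given in the sources used here, so overlapping and near-identical genes are uncertain. Each replicate number of the ES libraries has a table of its own. Positions are those of the 1 exon the tables list per gene.

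One edgeR 4.0.16 model (R 4.3.3) held the 6 ES libraries: filterByExpr with its default minimum, TMM, the quasi-likelihood test on genotype, and Benjamini-Hochberg adjusted p over all 15149 genes tested (common biological coefficient of variation 9.49%). Of the 119 genes 77 passed the filter. The 129 to CAST ratio was tested over 11597 genes averaging at least 20 allelic reads, with library as block and an allele by genotype term; 50 of the 119 passed and 69 did not. Library medians were compared by exact permutation. CPM and RPKM values are counts over total counts, without TMM. The MEF ratios used TMM and a prior count of 2, with no test. The fits were also run on simulated data. The allelic changes simulated there left out genes with few allelic reads or with 129 shares near 0. That run therefore does not test the calls of genes with WT shares near 0. DESeq2 1.42.0 was an alternative. Depth per ES library ran between 8000722 and 28045645 counts, which leaves most lowly expressed genes without an allelic value; intervals and limits for 0 counts (3 counts) cover counting error only.

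The genes, role lists and comparisons were chosen with earlier results of these data known. Genes were named by rule: all of the 4 families, the 6 highest and 6 lowest 129 shares outside them, up to 6 called genes per direction and comparison, the 5 highest and 5 lowest MEF ratios with at least 200 reads, and up to 3 genes per role list with the most reads. Others are named from single small counts or as examples after their values were seen.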

Additional observations from a re-analysis of the deposited data

How the results depend on the processing

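The direction of each difference in median 129 share held under every alternative run for it (an allelic minimum of 10 or 50 reads, pooled reads, the replicate block, each library left out). On all reads, RLE scaling and TMM from autosomal genes left each count of calls as it was. With no low-count filter 4 of 101 genes fell in RepB-/- against WT, and 1041 of all 20007 genes did so. DESeq2 called 1 of 77 genes lower in RepB+/- against WT, and 982 of all 15149 genes. It called 15 toward 129 in RepB+/-. In RepB-/- against RepB+/-, 1 gene, Irs4, was called lower with no filter and in DESeq2. Of all genes 74 were called lower there with no filter and 17 in DESeq2. With each library left out in turn, RepB-/- against WT had 7 to 18 genes higher and 0 to 3 lower, RepB+/- against WT 6 to 17 higher and 1 to 3 lower, and RepB-/- against RepB+/- 0 to 1 lower. Over all genes the numbers called higher and lower against WT also moved with the library left out. The cause of these moves was not tested. No called value changed sign.

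Replicates 1 and 2 share a number in the labels. Deviations of same-numbered libraries correlated with r of 0.186 for RepB-/- and RepB+/-, 0.0696 for RepB-/- and WT, and 0.108 for RepB+/- and WT, so the libraries share a number and were not taken as pairs. With the replicate block 18 genes rose and 4 fell in RepB-/-, and 23 rose in RepB+/-. Lower in RepB-/- than in RepB+/- was 1, and 25 and 24 shifted toward 129. Over all genes 1667 rose and 1493 fell in RepB-/-, and 1944 rose in RepB+/-. Of all genes 49 were lower in RepB-/- than in RepB+/-, and 263 and 246 shifted toward 129.

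With 2 libraries per genotype the permutation tests cannot reach 0.05. Of the 119 genes 69 lacked the allelic reads for a share, and shares of genes with few WT reads rest on single 129 reads. Differences of level in MEF have no replicate check.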
